A study of Apis mellifera with 24 samples.

Results

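Brains of 6 honey bee workers (Apis mellifera) of lineage L882 were compared, 3 of them reproductive and 3 sterile, out of 24 workers of 4 lineages profiled in the series. The 6 bees were chosen by their labels for lineage and reproductive status. L882 is a cross of a European (Eur) mother with an Africanized (Afr) father and belongs to block B. L875 is the other Eur x Afr lineage, in block A. L888 (block A) and L894 (block B) are the reciprocal Afr x Eur crosses, each with 3 bees per status. In the headers of the allele reads, L888 carries the letter I for reproductive and A for sterile bees. In the other lineages these letters stand the other way round. Status follows the sample labels here, and a swap in L888 was not tested. The workers had spent about 18 days in queenless colonies before polyA RNA of each brain was sequenced on its own. L882 is a single lineage, so a status difference in it describes that lineage and its 6 bees, and block and lineage cannot be told apart within it.

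Worker honey bees normally leave reproduction to the queen, whose pheromones hold back their ovaries. When a colony loses its queen, some workers activate their ovaries and lay unfertilized eggs, which develop into drones, while their nestmates stay sterile. The brain takes part in this switch through neuroendocrine signals such as dopamine and juvenile hormone, and worker behaviour shifts along with it. The comparison asks which transcripts of the brain sample go with the reproductive state among bees of the same cross reared without a queen.

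The deposited expression table gives genes by identifier only. None of its 15314 identifiers (0 of 15314) occurs in the reference table used here, so no name or role is given for any gene below, and the label of the tissue could not be checked against marker genes. For the same reason no member of the 10 gene lists and 6 sets of cell type markers drawn up for the study could be matched to an identifier. Their members may be among the genes counted, but none of the lists could be tested.

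The total of expected counts (estimated reads per gene) was 5.19, 11.1 and 8.31 M (M stands for mega) in reproductive bees 1, 2 and 3. It was 10.9, 14.4 and 11.7 M in sterile bees 1, 2 and 3. Reproductive bee 1 was the shallowest library of the 6, and the sides overlapped because reproductive bee 2 lay just above sterile bee 1. The mean was 8.19 ± 2.94 M in reproductive and 12.3 ± 1.82 M in sterile bees (SD, n = 3 each), a difference with p = 0.2 in a two-sided exact permutation test (adjusted p = 0.25 over 5 measures per library). With 3 bees a side the exact permutation p cannot go below 0.1. The number of genes with at least 10 counts was close in both groups, 9308 to 9388 in reproductive and 9157 to 9391 in sterile bees. After all libraries had been thinned to the depth of the shallowest L882 library, it was 9342, 8687 and 8929 in the reproductive side and 8592, 8172 and 8722 in the sterile side, in the order of the bees' numbers, so that the sides still overlapped (exact permutation p = 0.2).

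A few genes took up a very uneven part of the libraries, which was large in most of them. The 10 most abundant genes of L882 held 5.65%, 42.0% and 19.1% of the counts in reproductive bees 1, 2 and 3, and 46.3%, 59.9% and 38.01% in sterile bees 1, 2 and 3. Reproductive bee 1 was far below every other bee of the lineage, and reproductive bee 2 lay within the range of the sterile bees. The means were 22.2% ± 18.4 and 48.1% ± 11.03 (SD, n = 3 each; exact two-sided permutation p = 0.2, adjusted p = 0.25 over 5 measures). Without reproductive bee 1 the reproductive mean was 30.5%, with p = 0.4 in the exact permutation test, which cannot go below 0.2 for 2 bees against 3. In L894, the other lineage of block B, the same 10 genes held 31.02% to 43.1% in reproductive and 47.02% to 69.6% in sterile bees, without overlap (exact permutation p = 0.1, the smallest possible). In L875 and L888 the sides overlapped. The shares in L888 were 6.15% to 31.9% in reproductive and 9.18% to 41.3% in sterile bees. Those in L875 were 16.1% to 61.6% and 22.4% to 58.5% in the same order. A share about as low as that of reproductive bee 1 of L882 was thus also seen in L888.

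**Figure D1:**
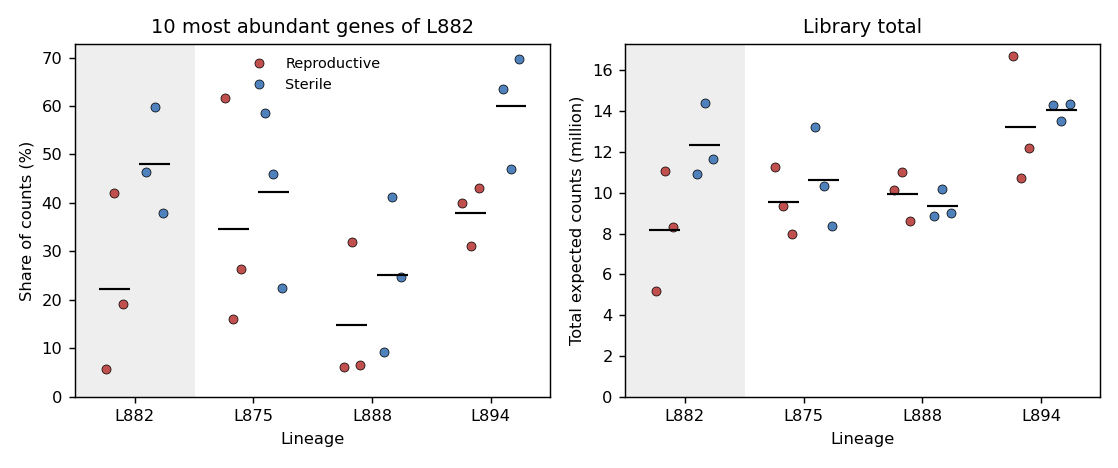
Left, share of all counts (%) held by the 10 most abundant genes of L882, and right, total expected counts (M), for each of the 24 bees (points) by lineage and status, with the mean of each group as a line and L882 shaded. Within L882 the share runs from 5.65% in reproductive bee 1 to 59.9% in sterile bee 2, and the shallowest library is that of reproductive bee 1.

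The most abundant gene, GB55205, was singled out after its values were seen. It held 0.281%, 19.6% and 9.18% of all counts in reproductive bees 1, 2 and 3 and 22.9%, 27.6% and 19.1% in sterile bees 1, 2 and 3. Its level was thus far lower in reproductive bee 1 than in the other 5 bees, though still 1470 CPM there after the scaling described below, and reproductive bee 2 lay close to the sterile bees. Its log2 difference (reproductive minus sterile) was -1.71 (SE 1.39, unadjusted p = 0.231, adjusted p = 0.881 in edgeR), so the spread between bees was about as large as the difference. Of the 10 most abundant genes, 9 had a log2 difference below 0 and 1 above it, from -2.31 to 0.24, and 0 of the 10 had an unadjusted p under 0.05 in edgeR (lowest p 0.184). Over all genes tested the median log2 difference was 0.02, against -1.48 over these 10. Reproductive bee 1 had the lowest level of the 6 bees in 8 of the 10 genes, and sterile bee 2 the highest in 7. In RNA from a whole tissue sample, fewer cells of a type and less RNA per cell cannot be told apart.

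Because these genes take up so much of some libraries, the scaling of the remaining genes matters. The scaling factors (TMM, trimmed mean of M values, which sets the bulk of genes equal between libraries) were 1.92, 1.03 and 1.32 on the reproductive side and 0.942, 0.643 and 1.04 on the sterile side. Scaled by library totals alone, the median log2 difference over all genes moved from 0.02 to 0.72. All levels below are therefore given after TMM scaling, in CPM (counts relative to the scaled size of each library), and each difference is one relative to the bulk of genes.

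No gene passed the threshold for a difference between reproductive and sterile brains of L882 in edgeR. Of 10071 genes tested, 0 had an adjusted p under 0.05 (0.0% called), and 395 (3.92%) had an unadjusted p under 0.05. If no gene differed, the threshold alone would give a share of about 0.05, which is more than was found. The 395 genes are therefore described below as the smallest p values, not as a set of genes shown to differ with status. Among these 395, 225 were higher in reproductive bees (2.23% of the genes tested) and 170 lower (1.69%). Scaled by library totals alone the unadjusted counts were 1748 higher and 9 lower. DESeq2 called 2 of the 10066 genes to which it gave an adjusted p (0.0199%), GB51356 and GB51218, and gave 467 genes (4.64%) an unadjusted p under 0.05. For limma voom these numbers were 0 and 450.

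The genes at an unadjusted p under 0.05 had a median log2 difference of 0.92 on the higher side and -0.68 on the lower side. A difference of more than 2-fold was seen in 99 of the 225 higher and 36 of the 170 lower genes. The genes on the higher side were the less abundant ones, with a median level of 10.6 CPM over all 24 bees, against 26.03 CPM on the lower side and 17.4 CPM over all genes tested.

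**Figure D2:**
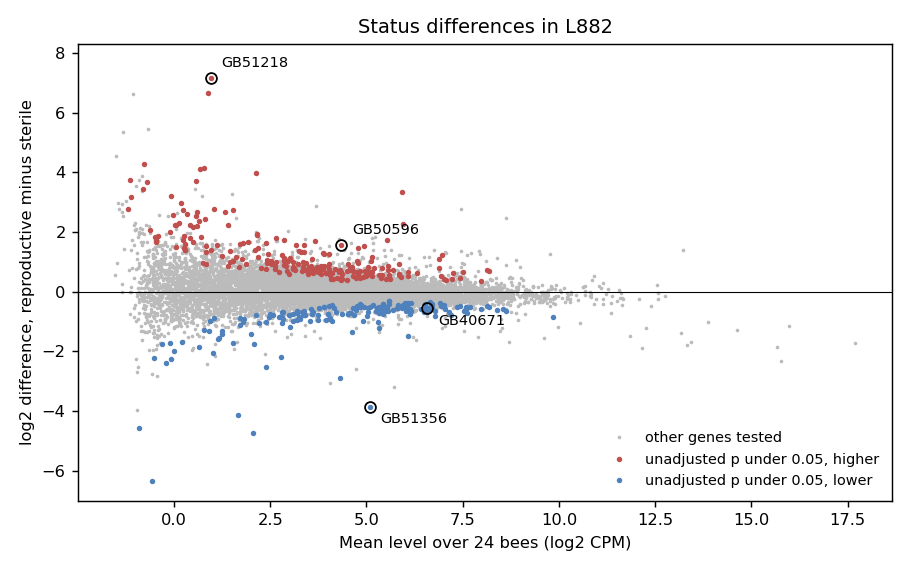
The log2 difference between reproductive and sterile bees of L882 (vertical) against the mean level over the 24 bees in log2 CPM (horizontal), with 1 point per gene tested. Colours mark the 225 genes higher and the 170 lower at an unadjusted p under 0.05, circles mark the 4 genes described by identifier, and the points farthest to the right are the most abundant genes, most of which lie below 0.

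The 2 identifiers with the smallest p in each direction are described here. As they were picked for their p in L882, a larger difference in L882 than in the other lineages is partly built into the choice. GB51356 had the smallest p of all. Its level was 6.14, 0.879 and 2.37 CPM in reproductive bees 1, 2 and 3, and 18.4, 57.5 and 58.7 CPM in sterile bees 1, 2 and 3. All 3 reproductive bees were lower than all 3 sterile bees, and the lowest was backed by 10 counts. The means were 3.13 ± 2.71 and 44.9 ± 22.9 CPM (SD, n = 3 each), and the log2 difference was -3.85 (SE 0.76, unadjusted p = 5.29e-05, adjusted p = 0.533 in edgeR). DESeq2 gave an adjusted p of 0.00257, and over all alternatives tried the adjusted p ran from 0.00257 to 0.999.

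The same gene was also the lower one in reproductive bees of the other lineages, by less. Its log2 difference was -1.65 (SE 0.67) in L875, where the sides did not overlap, and -1.39 (SE 0.68) in L888 and -1.30 (SE 0.67) in L894, where they did. Reproductive bees of those lineages had means of 23.2, 10.9 and 25.1 CPM for GB51356 in that order, so that the reproductive bees of L882 had the lowest levels in the series. The difference in L882 exceeded the mean of the other lineages by -2.41 on the log2 scale (SE 0.82, unadjusted p = 0.00770). This excess did not pass the adjusted threshold in edgeR (adjusted p = 0.806), and it contains the L882 difference by which the gene was picked.

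GB40671 had the next smallest p on the lower side, with a small but even difference. Its level was 71.7, 80.7 and 75.5 CPM in reproductive bees 1, 2 and 3, and 99.9, 108 and 127 CPM in sterile bees 1, 2 and 3. The sides did not overlap, and the means were 76.0 ± 4.49 and 112 ± 13.7 CPM (SD, n = 3 each). The log2 difference was -0.55 (SE 0.15, unadjusted p = 0.00140, adjusted p = 0.881 in edgeR). Scaled by library totals alone, which moved the median of all genes to 0.72, it was 0.12 and so stayed below that median. With DESeq2 size factors in edgeR it was -0.55, and with library sizes taken without the 10 most abundant genes it was -0.56.

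In L894 the same gene went the other way. There GB40671 had 112 to 139 CPM in reproductive and 86.6 to 101 CPM in sterile bees, again with no overlap, and a log2 difference of 0.46 (SE 0.15). In L875 and L888 the sides overlapped, with log2 differences of -0.12 (SE 0.15) and 0.17 (SE 0.15). The difference between L882 and L894 was -1.01 (SE 0.21, unadjusted p = 1.08e-04), which missed the adjusted threshold in edgeR (adjusted p = 0.611) and passed it in DESeq2 (adjusted p = 0.0316). The L882 difference by which GB40671 was picked is part of this test.

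On the higher side GB50596 had the smallest p. Its level was 32.4, 29.96 and 43.7 CPM in reproductive bees 1, 2 and 3, and 11.7, 14.7 and 9.09 CPM in sterile bees 1, 2 and 3. Every reproductive bee was above every sterile bee, at means of 35.4 ± 7.31 and 11.8 ± 2.81 CPM (SD, n = 3 each). The log2 difference was 1.58 (SE 0.39, unadjusted p = 5.77e-04, adjusted p = 0.881 in edgeR). In L875, L888 and L894 the sides overlapped, and the log2 differences of GB50596 were 0.06, -0.48 and 0.21 (SE 0.39, 0.38 and 0.39). The test of L882 against the mean of the others gave 1.65 (SE 0.45, unadjusted p = 0.00133, adjusted p = 0.806 in edgeR). It reuses the L882 difference by which GB50596 was picked, so its small unadjusted p is no independent sign that the difference is particular to L882.

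GB51218 was a rare transcript listed at 0 in all 3 sterile bees of L882. Reproductive bees 1, 2 and 3 had 26, 7 and 18 counts, or 2.62, 0.615 and 1.64 CPM. Counted against a floor of 3 counts over the 3 sterile libraries together, it was at least 16.7-fold higher in reproductive bees, a bound that covers counting error only. Its p was 7.67e-04 in edgeR (adjusted p = 0.881), and the adjusted p was 0.0499 in DESeq2. In the other lineages GB51218 was counted on both sides, from 0.771 to 2.51 CPM in sterile bees of L875, from 0.981 to 12.5 CPM in those of L888 and from 0 to 0.586 CPM in those of L894. Its log2 difference was -0.21 (SE 0.94) in L875, -1.87 (SE 0.90) in L888 and 0.88 (SE 1.08) in L894, so a lack in sterile bees was not seen throughout the series.

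**Figure D3:**
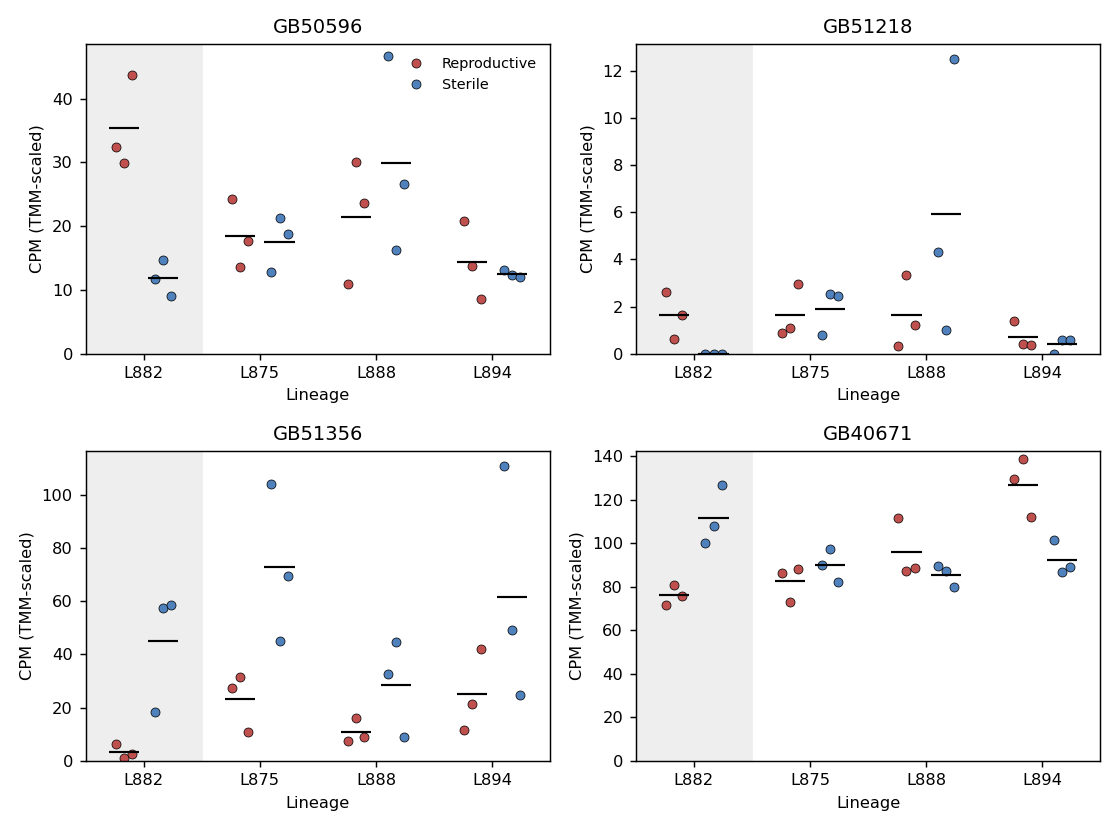
Levels in TMM-scaled CPM of the 4 genes GB50596, GB51218, GB51356 and GB40671 in each of the 24 bees (points), by lineage and status, with group means as lines and L882 shaded. In L882 the 3 reproductive and the 3 sterile bees do not overlap in any of the 4 genes, whereas GB50596 and GB51218 overlap in the other 3 lineages and GB40671 lies the other way in L894. The 4 genes were picked for the smallest p in L882, so their separation there is largely built in and the contrast with the other lineages partly so.

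Allele reads were listed for GB40671 and GB50596 of these 4 genes. The father's copy gave 52.8% ± 2.05 of the GB40671 reads in reproductive and 51.3% ± 2.26 in sterile bees (SD, n = 3 each), from 513 to 1803 reads per bee. For GB50596 it gave 49.4% to 50.7% in reproductive bees and 50.0% in each of the sterile bees, from 126 to 503 reads per bee. The sides overlapped in GB40671. In GB50596 the numbers from both parents were exactly equal in each sterile bee, at 63, 70 and 90 reads per parent in bees 1, 2 and 3. GB50596 also had more allele reads than expected counts in every bee of L882, with 180 against 110 in sterile bee 3. Allele reads and expected counts were thus not counted alike, and the equal numbers are not shown to be balanced expression. How reads were given to a parent is not stated in the labels.

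In terms of overlap alone, 1348 genes (13.4% of those tested) separated the reproductive bees of L882 from the sterile bees completely, 641 of them higher (6.36%) and 707 lower (7.02%). Scaled by library totals alone, 3085 genes were higher and 15 lower. In L894 the number was 1588 (15.8%; 7.25% higher and 8.52% lower). In L888 it was 529 (5.25%; 3.6% higher and 1.65% lower), and in L875 it was 323 (3.21%; 1.90% higher and 1.31% lower). The percentages describe each lineage's own 6 bees, and the difference between lineages was not tested. If status made no difference, a gene would separate 3 bees from 3 completely, in either direction, with a probability of 0.1. The 13.4% of L882 lies near that level, and genes that vary together can move a share to either side of it. With any one of the bees of L882 left out the number ranged from 2008 to 3240. It is larger by construction when fewer bees must be separated, as that probability is 0.2 for 2 bees against 3.

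The direction of the differences was related to how abundant a gene was. When the genes tested were split into 4 bins of nearly equal size by their mean level over all 24 bees, the least abundant bin (0.348 to 5.27 CPM) had 73 genes higher and 32 lower in reproductive bees at an unadjusted p under 0.05. The next bin had 74 higher and 43 lower, and the one after it 51 higher and 38 lower. In the most abundant bin (from 46.5 CPM up) the balance was the other way, with 27 higher and 57 lower. By overlap alone the most abundant bin had 67 genes with all reproductive bees higher and 286 with all of them lower. The share of genes at an unadjusted p under 0.05 was similar between the bins, 4.17%, 4.65%, 3.54% and 3.34% from the least to the most abundant. Each was below the share of 0.05 that the threshold alone would give.

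These counts depended on reproductive bee 1. Without it, the least abundant bin had 28 genes higher and 45 lower, and the most abundant bin had 36 higher and 12 lower, so that both balances of counts were turned round. Over all genes of a bin the median log2 difference kept its sign and became smaller, from 0.15 to 0.016 in the least and from -0.09 to -0.04 in the most abundant bin. Without sterile bee 3 the most abundant bin had 7 higher and 7 lower, and without sterile bee 1 it had 56 and 52. Thinning all libraries to the depth of reproductive bee 1 left the pattern in place, with 64 higher and 21 lower in the least and 33 higher and 57 lower in the most abundant bin. Scaled by library totals alone, the most abundant bin had 367 higher and 0 lower. In L875 the most abundant bin had 18 higher and 20 lower, in L888 it had 42 and 16, and in L894 it had 75 and 43.

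**Figure D4:**
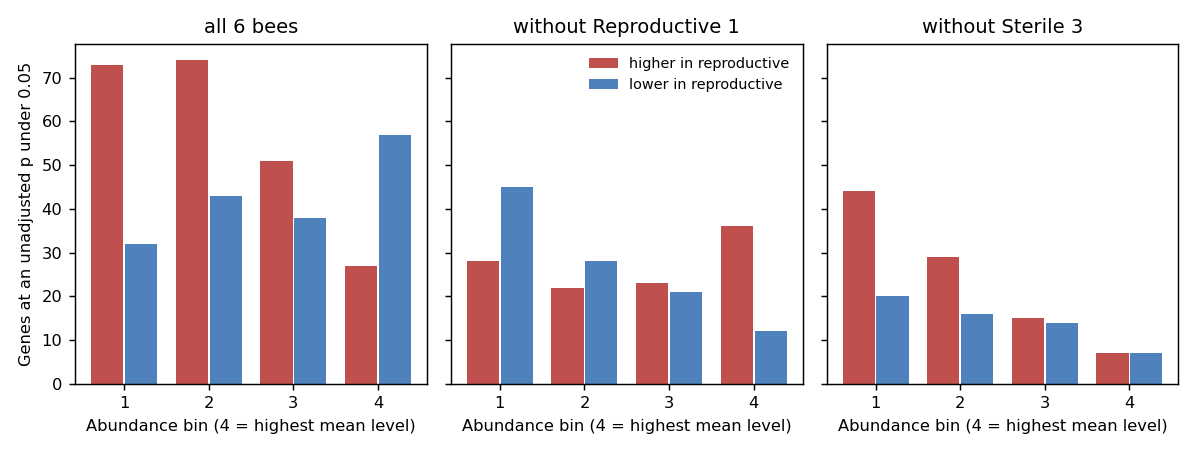
Number of genes at an unadjusted p under 0.05 in L882, higher (red) or lower (blue) in reproductive bees, by bin of the mean level over the 24 bees, with all 6 bees, without reproductive bee 1 and without sterile bee 3. With all bees the most abundant bin has 27 higher and 57 lower genes, and without reproductive bee 1 it has 36 and 12.

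The bees of a side differed among themselves about as much as the sides did. Pearson's r of the log2 CPM values over the 10071 genes was 0.927, 0.939 and 0.960 between reproductive bees and 0.952, 0.957 and 0.969 between sterile bees. Between the sides it ran from 0.914 to 0.973, and the 2 most alike bees of all were reproductive bee 2 and sterile bee 2. These values run across genes, which are not independent replicates. Reproductive bee 1 and sterile bee 3 lay at opposite ends of the first principal component (scores -63.6 and 33.7), which held 37.2% of the variance.

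Many of the genes depended on single bees. Among 9373 genes with a mean of at least 1 CPM, sterile bee 3 was the bee farthest from the other two of its side in 45.6% of genes, while on the reproductive side bee 1 was the farthest in 39.4% and bee 3 in 36.4%. The median SD between bees, on the log2(CPM + 1) scale, was 0.285 in reproductive and 0.247 in sterile bees. It was 0.207, 0.275 and 0.216 without reproductive bee 1, 2 or 3, and 0.22, 0.23 and 0.160 without sterile bee 1, 2 or 3. A median SD of 2 bees tends to be lower than that of 3 by construction, so part of each fall would follow from leaving out any bee. Of the 395 genes at an unadjusted p under 0.05, 116 were among the 218 found without reproductive bee 1, and 94 were among the 153 found without sterile bee 3. Leaving out sterile bee 1 or reproductive bee 3 gave more genes, 646 and 602. Only 28 of the 395 were at an unadjusted p under 0.05 whichever of the 6 bees was left out, 13 higher and 15 lower. Direction was the same each time in 392 of the 395. That is largely built in, as each fit keeps most of the bees by which the 395 were chosen. The share over all genes tested was not counted. GB51356, GB40671, GB50596 and GB51218 were among the 28, with the largest of the 6 p values at 6.26e-04, 0.0154, 0.00431 and 0.00383. They had been chosen for the smallest p in the same bees, so this is no independent check.

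The differences seen in L882 were next set beside those of the other lineages, which share no bee with it. Of the 395 genes, 278 (70.4%) had the same direction in L875, the other Eur x Afr lineage, where 58.9% of all genes tested did. In L888 the number was 115 (29.1%, against 43.2% of all genes), and in L894 it was 121 (30.6%, against 40.2%). The L888 directions, and the mean of these lineages, rest on its status labels, with which its allele headers are at odds. Few of the 395 were also at an unadjusted p under 0.05 elsewhere. These were 8 genes in L875 (2.03%, against 1.56% of all genes tested), 7 of them in the same direction. In L888 there were 11 (2.78%, against 2.28%), 4 in the same direction, and in L894 there were 30 (7.59%, against 5.63%), of which 3 had the same direction and 27 the opposite one. In the mean of these lineages there were 21 (5.32%, against 3.30%), 8 in the same direction. Across the 10071 genes Pearson's r between the differences of L882 and those of L875, L888 and L894 was 0.16, -0.09 and -0.02, as a description across genes.

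**Figure D5:**
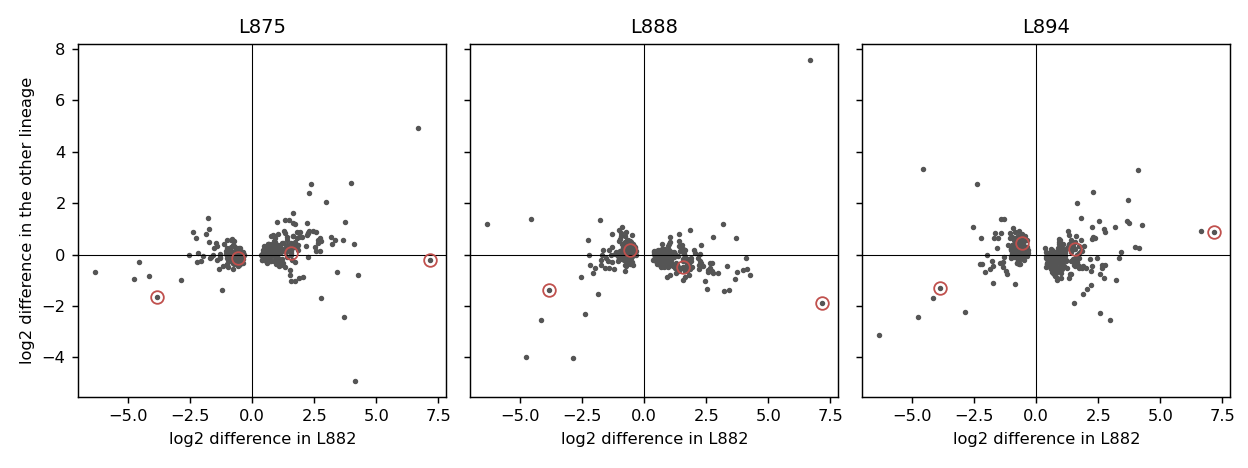
For the 395 genes at an unadjusted p under 0.05 in L882, the log2 difference between reproductive and sterile bees in L882 (horizontal) against that in L875, L888 and L894 (vertical), with the 4 genes described by identifier circled in red. Points in the lower left and upper right have the same direction in both lineages, which holds for 278 genes in L875, 115 in L888 and 121 in L894.

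Direct tests of these differences between lineages called no gene in edgeR. Against the mean of the other 3 lineages, 0 of 10071 genes passed (0.0%), with 526 at an unadjusted p under 0.05 (5.22%). For DESeq2 these numbers were 0 and 569, and for limma voom 0 and 590. Against L875 the numbers were 0 and 136 (1.35%), and they were 0 and 146 in DESeq2 and 0 and 119 in limma voom. Against L894 they were 0 and 805 (7.99%) in edgeR and 0 and 889 in limma voom. DESeq2 called 3 genes against L894 (0.0298%), GB40671, GB43728 and GB45796, of which the last pair is named only because the count is small.

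GB45796, one of the 10 most abundant genes of L882, differed widely between bees in all 4 lineages. Over both sides, which overlapped, it ran from 19.2 to 35241 CPM in L875 and from 331 to 32092 CPM in L888. In L894 it had 82.6 to 135 CPM in reproductive bees and 25763 to 69746 CPM in sterile bees, without overlap. In L882 the reproductive bees 1, 2 and 3 had 53.0, 20926 and 4801 CPM and the sterile bees 1, 2 and 3 had 23286, 16234 and 12836 CPM, so that reproductive bee 1 lay below the reproductive bees of L894 and reproductive bee 2 within the range of the sterile bees of L882. The log2 difference of GB45796 was -1.02 (SE 1.62) in L882 and -8.62 (SE 2.24) in L894. The test of L882 against L894 gave 7.60 (SE 2.54, unadjusted p = 0.00694), with an adjusted p of 0.611 in edgeR and 0.0316 in DESeq2.

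GB43728 had 215, 320 and 323 CPM in reproductive bees 1, 2 and 3 and 321, 369 and 331 CPM in sterile bees 1, 2 and 3 of L882. Its sides overlapped, and its log2 difference was -0.25 (SE 0.32) in L882 and 1.75 (SE 0.33) in L894. The difference between these lineages was -2.002 (SE 0.45), with an adjusted p of 0.611 in edgeR and 0.0317 in DESeq2.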

How the data were processed

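Per the labels, polyA RNA of single dissected brains was sequenced from both ends of its fragments over 2 lanes. HISAT2 and limma are named in the submitters' processing notes; which counter, build and annotation were used is not stated there. The authors deposited expected counts per gene, unscaled (87.3% exactly whole, tolerance 0), and allele-specific read counts, read here for the described genes alone. No column per bee was left out. After rounding to whole numbers and filterByExpr on the 8 groups, all 24 libraries entered 1 edgeR 4.0.16 fit (R 4.3.3) with a mean per group, TMM factors and two-sided quasi-likelihood tests of L882 reproductive minus sterile and of its difference from other lineages. The SE is the log2 difference over the root of F. Benjamini-Hochberg adjusted p values cover all genes tested (threshold 0.05) and come from edgeR except where DESeq2 1.42.0 or limma 3.58.1 stands beside them. As identifiers have no names, at most 2 per direction, with the smallest p, were described; others were chosen after their values were seen. Members and lists were chosen with earlier results of these data known. Library measures were compared by exact permutation. Replicate numbers follow accession order. The SE and p values of the fits use a spread between bees that was estimated over all 8 groups, not in L882 alone. Permutation p values use the bees of 1 lineage. Each status difference still compares bees of 1 lineage. The fits were tested on simulated data. Depth was 5.19 to 14.4 M counts in L882, and bounds cover counting error only. Alternatives were other scalings, filters, tools, sample sets, thinning and leaving out each bee.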

Additional observations from a re-analysis of the deposited data

Results flagged for a closer look

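Among the genes described for their smallest p, GB40671 was singled out because its reproductive and sterile bees did not overlap in either lineage of block B, in opposite directions. The other genes were not searched for this pattern, so it is not shown to be particular to GB40671. Of all genes tested, 13.4% did not overlap in L882 and 15.8% in L894, where a share of 0.1 would be expected without any status difference. Of the 30 genes at an unadjusted p under 0.05 in edgeR in both lineages, 27 had opposite directions. All 3 reproductive bees were lower in L882 and all 3 were higher in L894. The log2 difference of L882 exceeded that of L894 by -1.01 (SE 0.21), with an unadjusted p of 1.08e-04 and an adjusted p of 0.611 in edgeR, so the test of the difference itself did not pass the threshold there. DESeq2 gave an adjusted p of 0.0316. The gene was picked for its small p in L882, and these tests are not free of that choice.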

How the results depend on the processing

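The count of 0 genes for status in L882 was the same in edgeR under every alternative tried. Limma voom and DESeq2 were run with the main filter and all bees only. There limma voom called 0 and DESeq2 called 2, GB51218 and GB51356. Of genes at an unadjusted p under 0.05, main number 395, there were 600 with the L882 libraries alone, 857 with block B alone, 85 with a minimum of 1.5-fold and 153 to 646 with a bee left out. With library totals in place of TMM factors, chosen after seeing the data, there were 1757. Non-overlapping genes (1348) numbered 2008 to 3240 with a bee left out and 3100 with library totals. Tests against the other lineages and against L894 gave 0 to 1 gene with a bee left out (GB43991, without reproductive bee 3, adjusted p = 0.0201 and 0.0250 in edgeR), and DESeq2 gave 3 against L894. Unadjusted counts against the other lineages (526) went to 200 without sterile bee 3, 130 with the minimum fold and 196 with library totals. Those against L894 (805) went to 361, 301 and 197 in the same order and to 1260 with block B alone. Those against L875 (136) went to 71 with the minimum fold, 209 without reproductive bee 3 and 211 without sterile bee 1. GB40671 reversed with library totals, at 0.12, where all genes moved by the construction of the scaling. GB51218 passed neither the filter of 10 counts nor that of L882 alone and has no value there. Elsewhere the cause was not tested. No paired analysis was possible because the reproductive and sterile bees are different individuals and the labels give no pairing between them. Depth limits statements on rare transcripts such as GB51218.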
